A study of Mus musculus with 12 samples.

Results

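The genes described here are the cytosolic and mitochondrial chaperones and the cochaperones that work with them, a group of 42 named genes, in livers of mice given silver nanoparticles. They comprise HSP90 and HSP70 chaperones with their relatives, the mitochondrial chaperonin, cochaperones of HSP90 and of HSP70, small heat shock proteins and heat shock transcription factors. A gene was represented by array probe sets that name it and no other gene, and where several did, by the one with the highest mean over the 12 arrays. Of the 42 genes, 39 had such a probe set, out of 30063 genes with one on the array. Hsp90ab1, the constitutive cytosolic HSP90, and Hsf1, the main transcription factor of the heat shock response, had none, and Dnaja1 was represented only by a probe set that names several genes, so these 3 genes have no value here.

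Chaperones bind proteins that are not yet folded or have lost their fold. In the cytosol, J-domain proteins deliver such proteins to HSP70, nucleotide exchange factors release them again, and the adaptor STIP1 hands a subset of them, among them kinases and steroid hormone receptors, to HSP90, whose ATP-driven cycle is paced by further cochaperones. In mitochondria the HSP70 Hspa9 pulls in and folds imported proteins together with the barrel-shaped chaperonin of Hspd1 and its lid Hspe1. Hepatocytes make large amounts of secreted and mitochondrial protein, and many of these genes also carry binding sites for HSF1, through which protein-damaging stress raises their transcription.

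The RNA came from whole livers of mice of strain C57BL/6J -Oca2p-un/J, aged 3 months. All carry the unstable pink-eyed allele of Oca2, the water-treated mice included. Mice received silver particles of 20 nm by oral gavage, 7 daily doses at 4 mg of silver per kg, and livers were taken 24 h after the last dose. The 3 groups were PVP (particles coated with polyvinylpyrrolidone, a neutral polymer), citrate (particles coated with citrate, a small charged molecule) and water (controls), each of 4 mice, 2 females and 2 males, with 1 array per mouse. A vehicle with the coating alone was not analysed here, so coating and silver cannot be told apart in either treatment. Replicates are separate mice, and 4 arrays per group limit the precision of every value.

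Signals are log2 values, on which a difference of 1 is a doubling. All 8 hepatocyte markers lay above the filter that decided which genes were tested, a mean signal of 3.93, with gene means between 11.65 and 19.93. The table has a ceiling at 19.93. The arrays differed in how well exon controls stood out from intron controls, measured as an area that is 1 for perfect separation: it was 0.802 ± 0.0198 in the PVP group, 0.820 ± 0.00624 in the citrate group and 0.824 ± 0.016 in the water group (mean ± SD, n = 4 each). The lowest areas of the 12 arrays, 0.778 and 0.794, belonged to PVP replicates 1 and 4, and results are therefore also given without these 2 arrays. Because whole liver was measured, fewer cells of a type and less RNA per cell cannot be told apart.

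Promoters are shown first, for members picked by smallest p in the comparison of PVP with water, in which no member passed. RefSeq promoters, taken as the 250 bases before the transcription start on GRCm38.p6, were at hand for 34 of the 42 members, and for 8 of the 10 members with the smallest p in that comparison. Hsp90aa1 was not among them. The 4 with the smallest p were Hsph1 (chr5:149636337-149636586, minus strand), Stip1 (chr19:7040027-7040276, minus strand), Ahsa1 (chr12:87266478-87266727, plus strand) and Tomm34 (chr2:164071170-164071419, minus strand). Each is written 5′ to 3′ on the gene's strand and ends at the base before the start. Capitals mark letters of the heat shock element, to which HSF1 binds, and of the CCAAT box, a common promoter element bound by NF-Y.
Hsph1: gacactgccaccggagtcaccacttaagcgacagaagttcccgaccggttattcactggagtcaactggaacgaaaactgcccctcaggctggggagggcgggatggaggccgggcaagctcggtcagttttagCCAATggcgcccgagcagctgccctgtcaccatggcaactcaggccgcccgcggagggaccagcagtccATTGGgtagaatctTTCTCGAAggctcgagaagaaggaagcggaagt
Stip1: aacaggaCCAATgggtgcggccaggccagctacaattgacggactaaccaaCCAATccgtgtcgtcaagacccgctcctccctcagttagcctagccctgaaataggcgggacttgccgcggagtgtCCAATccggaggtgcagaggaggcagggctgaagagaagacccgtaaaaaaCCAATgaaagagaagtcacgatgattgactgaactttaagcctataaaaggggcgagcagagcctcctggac
Ahsa1: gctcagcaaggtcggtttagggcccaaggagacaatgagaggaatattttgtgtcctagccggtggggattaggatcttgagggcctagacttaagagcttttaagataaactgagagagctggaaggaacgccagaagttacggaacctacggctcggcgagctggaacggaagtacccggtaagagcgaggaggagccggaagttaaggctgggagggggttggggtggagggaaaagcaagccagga
Tomm34: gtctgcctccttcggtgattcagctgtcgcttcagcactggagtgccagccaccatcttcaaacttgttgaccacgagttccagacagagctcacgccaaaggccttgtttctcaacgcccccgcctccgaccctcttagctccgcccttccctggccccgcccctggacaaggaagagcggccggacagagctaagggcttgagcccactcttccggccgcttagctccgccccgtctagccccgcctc

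The Hspe1 promoter (chr1:55087898-55088147, plus strand) was added after the matches were seen, because it holds the element in its longest form among these genes. Hspe1 and its partner Hspd1 lie beside each other on chromosome 1.
Hspe1: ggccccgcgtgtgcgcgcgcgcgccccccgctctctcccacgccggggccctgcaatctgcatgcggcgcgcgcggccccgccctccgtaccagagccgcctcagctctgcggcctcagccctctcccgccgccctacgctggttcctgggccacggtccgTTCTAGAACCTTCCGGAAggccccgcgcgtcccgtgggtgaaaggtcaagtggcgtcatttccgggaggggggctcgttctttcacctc

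The heat shock element was searched as a pair of units head to head (GAANNTTC), a pair tail to tail (TTCNNGAA) and 3 units in a row in either order, on both strands; a match of 3 units contains one pair of each kind. The Hsph1 promoter held 1 tail-to-tail pair, whose near end lies 25 bases before the start, and 2 CCAAT boxes. The Stip1 promoter held 4 CCAAT boxes and no pair, and those of Ahsa1 and Tomm34 held none of these letters. In the Hspe1 promoter 1 head-to-head and 2 tail-to-tail pairs overlap in a single run that ends 71 bases before the start.

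Over all promoters in the table, 6.78% of 27025 held a head-to-head pair, 7.10% a tail-to-tail pair, 0.400% 3 units and 34.5% a CCAAT box (CCAAT, or ATTGG on the other strand). Among the 34 members with an entry the numbers were 5, 4, 2 and 9. The 2 members with 3 units were Hspe1 and Dnajb6. These matches describe letters in a window and are no evidence of binding or of its absence.

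PVP livers had lower mean signals than water livers for most of these genes, with log2 fold changes down to -1.41, but no member passed the test. The members with the smallest p were Hsph1, Stip1, Hsp90aa1, Ahsa1, Tomm34, Fkbp4 and Hspa4l, which encode HSP110-type partners of HSP70, the inducible cytosolic HSP90 and cochaperones that dock on HSP90. None reached an adjusted p of 0.05 over the 19985 genes tested (limma, Benjamini-Hochberg), at which 0.025% of all genes were lower and 0.015% higher. At an adjusted p under 0.1 there were 7 members, against 1.36% of all genes. At an unadjusted p under 0.05, 18 of the 39 members were lower and 1 was higher, against 12.2% and 8.05% of all genes. All 4 PVP livers lay below all 4 water livers for 11 members, against 4.92% of all genes, and above them for no member, against 2.98%. The members and the further gene lists were chosen with earlier results of these data known. The shares here and below therefore describe these data and are no test of a group.

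Of the 39 members, 33 had a log2 fold change below 0 and 5 above it, against 50.5% and 49.2% of all genes, and Hspa8 gave none. The members' median log2 fold change was -0.22, against -0.0023 over all genes tested. After quantile normalisation the median was -0.14 over the 38 members below the ceiling, against -0.020 over all genes. Without PVP replicates 1 and 4 the number of members lower at an unadjusted p under 0.05 was 13, and it was also 13 when the area was a term in the fit. The share of all genes at that level was not counted in either fit. The number that passed depended on the setting: 2 members passed with array weights, 4 without a trend on the mean, 1 after quantile normalisation and 3 without PVP replicate 3, with Hsph1 among them each time, and none in the other 21 alternatives. How many of all genes passed was not counted in these alternatives. Over the 25 alternatives the adjusted p ran from 0.0281 to 0.273 for Hsph1, from 0.0411 to 0.287 for Stip1 and from 0.0483 to 0.327 for Hsp90aa1, and it was highest without PVP replicates 1 and 4. The plot of fold changes by role shows these comparisons for each member.

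**Figure D1:**
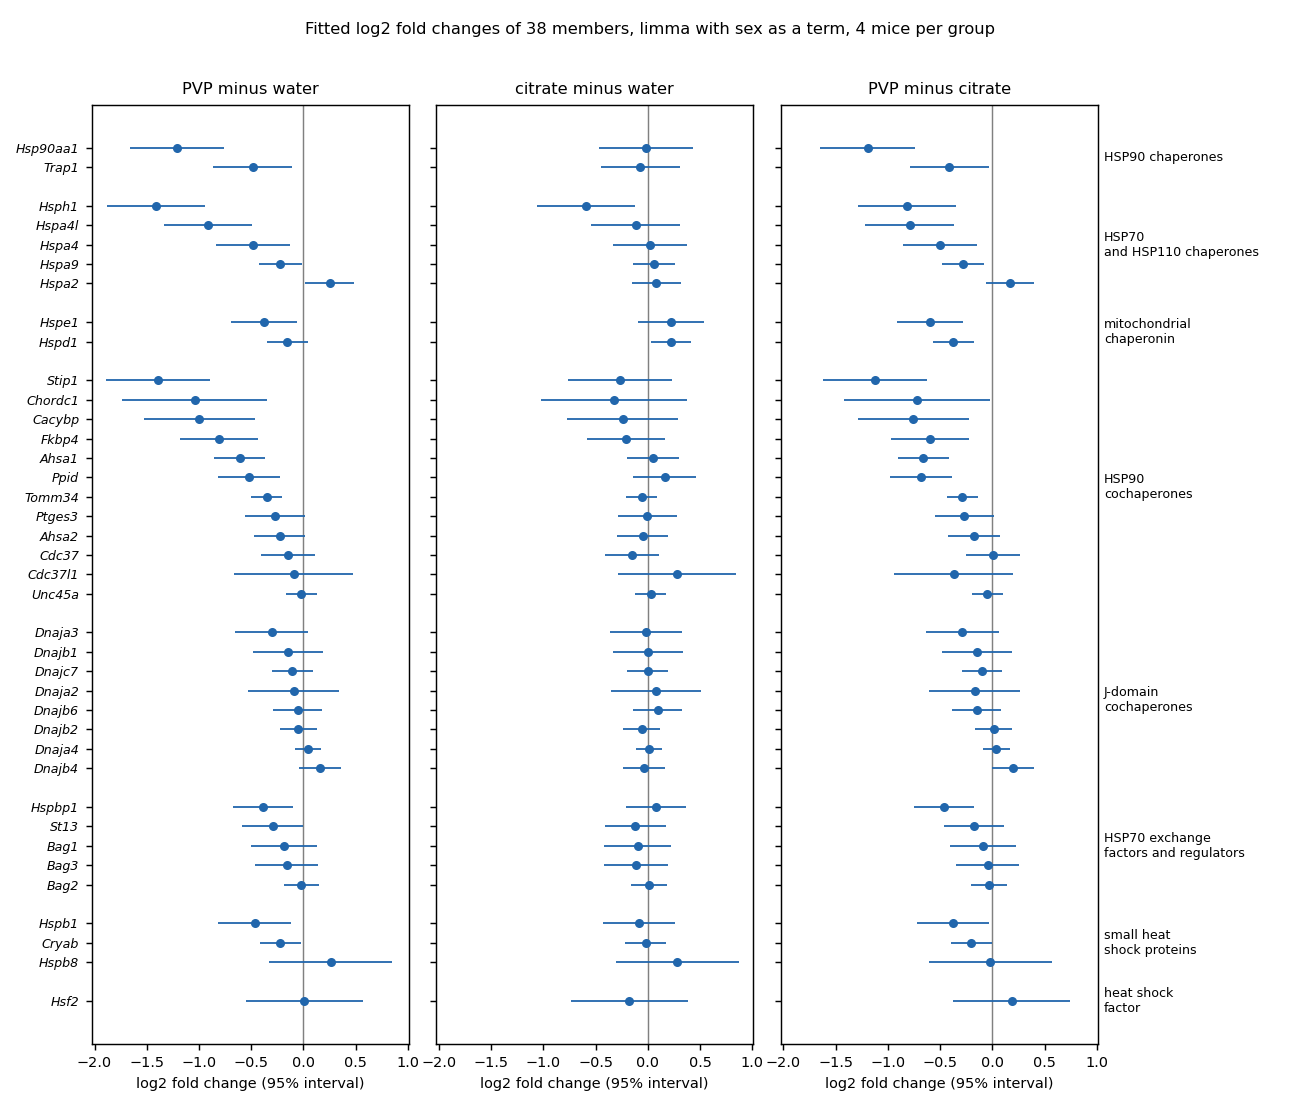
Log2 fold changes (points) with 95% intervals (lines) from the limma fit for the 38 members below the ceiling, by role, in panels for PVP minus water, citrate minus water and PVP minus citrate (n = 4 mice per group). Hsph1, Stip1 and Hsp90aa1 lie furthest left for PVP against water, and the citrate intervals include 0 for all but 2 members, Hsph1 and Hspd1.

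Hsp90aa1 encodes the stress-inducible cytosolic HSP90. Its log2 signals were 11.75, 12.35, 12.34 and 11.94 in the 4 PVP livers, 13.34, 12.84, 13.63 and 13.35 in the 4 citrate livers and 13.18, 13.09, 13.30 and 13.65 in the 4 water livers. Every PVP liver lay below every liver of the other groups, which overlapped each other. Between PVP and water this was a log2 fold change of -1.21 (standard error 0.20, adjusted p = 0.0577), a linear signal 0.432 times that of water livers. Without PVP replicates 1 and 4 the log2 fold change was -0.96.

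Trap1 encodes the mitochondrial HSP90. It averaged 11.31 ± 0.36 in PVP livers, 11.73 ± 0.10 in citrate livers and 11.80 ± 0.16 in water livers (mean ± SD, n = 4 each). The PVP and water groups overlapped, and the log2 fold change of -0.49 (standard error 0.17, adjusted p = 0.182) did not pass.

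Among the HSP70 and HSP110 chaperones, 4 of 6 were lower at an unadjusted p under 0.05 with PVP and 1 was higher, against 12.2% and 8.05% of all genes, with a median log2 fold change of -0.35. The 6 include Hspa8, which was at the ceiling and entered this median as 0. Hsph1, an HSP110 that acts as nucleotide exchange factor of HSP70 and holds unfolded protein in solution, had the smallest p of all members. Its log2 signals were 8.06, 8.67, 9.25 and 8.88 in the 4 PVP livers, 9.57, 9.06, 9.95 and 9.55 in the 4 citrate livers and 10.004, 9.99, 10.22 and 10.28 in the 4 water livers. The PVP and water groups were apart, the citrate livers also lay below every water liver, and the PVP and citrate groups overlapped through PVP replicate 3. PVP against water gave a log2 fold change of -1.41 (standard error 0.21, adjusted p = 0.0566), a linear signal 0.377 times that of water livers.

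Hspa4l, a second HSP110, had log2 signals of 6.94, 7.65, 7.18 and 6.71 in the 4 PVP livers, 8.02, 8.07, 7.75 and 7.81 in the 4 citrate livers and 7.67, 7.94, 7.86 and 8.66 in the 4 water livers. All PVP livers were below all others, with PVP replicate 2 just under water replicate 1. The comparison of PVP with water gave a log2 fold change of -0.91 (standard error 0.19, adjusted p = 0.0875). Hspa4, the third HSP110, had a log2 fold change of -0.49 (standard error 0.16, adjusted p = 0.168) with overlapping groups.

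Hspa8, the constitutive HSP70 of the cytosol, was at the ceiling of 19.93 on all 12 arrays and therefore carries no information on differences. All 4 of its probe sets stood at the ceiling. Their names place them on chromosomes 1, 1, 6 and 14, whereas RefSeq places Hspa8 on chromosome 9; which sequence they read was not tested. For 99.8% of 28066 genes the 2 sources gave the same chromosome.

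Hspa9 encodes mitochondrial HSP70. It had log2 signals of 15.25, 15.02, 15.49 and 15.43 in the 4 PVP livers, 15.49, 15.54, 15.71 and 15.58 in the 4 citrate livers and 15.44, 15.49, 15.66 and 15.49 in the 4 water livers. PVP replicates 1 and 2, the females, were the lowest of all 12 livers, and the remaining PVP livers lay within or just below the water range. The log2 fold change of -0.22 (standard error 0.092, adjusted p = 0.218) did not pass. Hspa2, an HSP70 known for its role in male germ cells, was the single member higher at an unadjusted p under 0.05, with a log2 fold change of 0.25 (standard error 0.11, adjusted p = 0.22) at the lowest mean signal of the members, 4.45. No member was higher at that level with arrays of the 2 groups only, with the replicate block, with arrays centred on their median, or without water replicate 2 or 3 or PVP replicate 3 or 4.

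All 12 HSP90 cochaperones had log2 fold changes below 0 in PVP against water livers, against 50.5% of all genes, and the median was -0.44. Of the 12, 7 were lower at an unadjusted p under 0.05 and the same number had groups that did not overlap, against 12.2% and 4.92% of all genes. Stip1 encodes the adaptor that links HSP70 to HSP90. Its log2 signals were 9.90, 10.69, 10.80 and 10.42 in the 4 PVP livers, 11.74, 11.43, 11.71 and 11.42 in the 4 citrate livers and 11.95, 11.53, 11.62 and 12.27 in the 4 water livers. Every PVP liver lay below every citrate and water liver. The log2 fold change of -1.39 (standard error 0.23, adjusted p = 0.0577) corresponds to a linear signal 0.382 times that of water livers.

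Ahsa1, the activator of the HSP90 ATPase, had log2 signals of 8.47, 8.80, 8.88 and 8.96 in the 4 PVP livers, 9.41, 9.27, 9.63 and 9.46 in the 4 citrate livers and 9.34, 9.36, 9.45 and 9.41 in the 4 water livers. The PVP livers were all below the rest, and the water livers spanned a narrow range. PVP against water gave a log2 fold change of -0.61 (standard error 0.11, adjusted p = 0.0675). Its relative Ahsa2 had a log2 fold change of -0.23 (adjusted p = 0.276).

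Tomm34, a cochaperone with tetratricopeptide repeats that binds HSP70 and HSP90 and helps to deliver precursors to mitochondria, had low signals with little spread. They were 5.29, 5.26, 5.34 and 5.33 in the 4 PVP livers, 5.67, 5.61, 5.61 and 5.49 in the 4 citrate livers and 5.51, 5.63, 5.68 and 5.80 in the 4 water livers. The PVP livers were again below all others, with a log2 fold change of -0.35 (standard error 0.067, adjusted p = 0.0707). Fkbp4, an immunophilin of steroid receptor complexes, had log2 signals of 9.94, 9.99, 10.31 and 9.86 in the 4 PVP livers, 10.89, 10.79, 10.52 and 10.29 in the 4 citrate livers and 10.84, 10.68, 10.63 and 11.19 in the 4 water livers. Here PVP and water were apart, while citrate replicate 4 lay below PVP replicate 3. The comparison with water gave a log2 fold change of -0.81 (standard error 0.17, adjusted p = 0.0875).

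Ppid, a cyclophilin that binds HSP90 in the same complexes, had log2 signals of 8.37, 8.49, 8.80 and 8.63 in the 4 PVP livers, 9.23, 9.09, 9.51 and 9.18 in the 4 citrate livers and 8.92, 9.31, 9.21 and 8.92 in the 4 water livers. All PVP livers were below all others, and the log2 fold change of -0.52 (standard error 0.14, adjusted p = 0.121) did not pass. Cacybp, a partner of the ubiquitin ligase SIAH1 with a cochaperone-type CS domain, had log2 signals of 8.28, 9.07, 9.28 and 8.78 in the 4 PVP livers, 9.76, 9.41, 9.72 and 9.55 in the 4 citrate livers and 9.91, 9.53, 9.59 and 10.37 in the 4 water livers. The PVP livers were again the lowest, with a log2 fold change of -0.998 (standard error 0.24, adjusted p = 0.11).

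Chordc1, an HSP90-binding protein with CHORD domains, had log2 signals of 8.86, 9.91, 10.44 and 10.13 in the 4 PVP livers, 10.92, 10.34, 10.58 and 10.37 in the 4 citrate livers and 10.77, 10.57, 10.78 and 11.39 in the 4 water livers. PVP replicate 1 was far below the other PVP livers, PVP replicate 3 lay within the citrate range, and the PVP and water groups were apart. The log2 fold change of -1.04 (standard error 0.31, adjusted p = 0.149) had a wide 95% interval, -1.74 to -0.35. Without PVP replicates 1 and 4 the log2 fold change was -0.70 for Chordc1, -0.68 for Cacybp, -0.62 for Hspa4l, -1.16 for Hsph1, -1.10 for Stip1, -0.68 for Fkbp4, -0.55 for Ahsa1, -0.45 for Ppid and -0.35 for Tomm34. When the fit included the area of each array as a term, the values shrank most in proportion for Chordc1 (-0.55), Cacybp (-0.58) and Hspa4l (-0.57). In that fit the log2 fold change was -1.19 for Hsph1, -0.99 for Stip1 and -0.97 for Hsp90aa1, and it lay between -0.60 and -0.32 for Fkbp4, Ppid, Ahsa1 and Tomm34. The plot of signals by mouse shows the 10 members together.

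**Figure D2:**
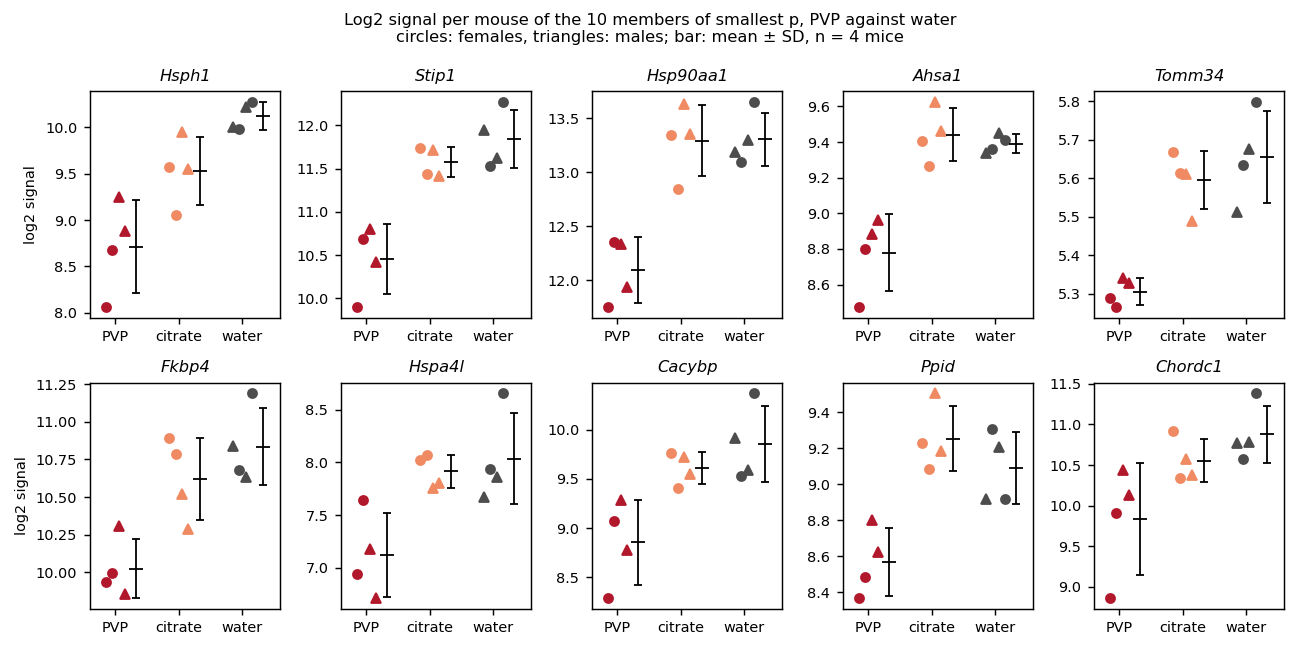
Log2 signal in each mouse for the 10 members with the smallest p in PVP against water, with PVP, citrate and water from left to right; circles are females, triangles are males, and bars are group means with SD (n = 4). For Stip1 and Hsp90aa1 the 4 PVP livers lie below all 8 other livers.

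The other HSP90 cochaperones differed less. Ptges3, the p23 protein that stabilises the closed form of HSP90, had a log2 fold change of -0.27 (adjusted p = 0.262), and Cdc37, which brings kinases to HSP90, one of -0.15 (adjusted p = 0.472). Its relative Cdc37l1 had -0.093, with PVP livers between 7.38 and 9.07, the widest spread of a PVP group among the members. Unc45a, a myosin chaperone, had -0.021 (95% interval -0.17 to 0.13).

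None of the 8 J-domain cochaperones measured reached an unadjusted p under 0.05, and their median log2 fold change was -0.074; whether they differ from the HSP90 cochaperones was not tested. Dnajb1, the cytosolic HSP40 that is a classic heat shock target, had log2 signals of 7.16, 7.28, 7.41 and 7.43 in the 4 PVP livers, 7.75, 7.38, 7.25 and 7.49 in the 4 citrate livers and 7.41, 7.39, 7.21 and 7.88 in the 4 water livers. The groups overlapped. The log2 fold change was -0.15 for PVP against water (95% interval -0.49 to 0.19, adjusted p = 0.579). The others ran from -0.30 for Dnaja3, the mitochondrial J-domain protein, to 0.16 for Dnajb4; Dnajc7, Dnaja2, Dnajb6, Dnajb2 and Dnaja4 lay between.

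Of the 5 exchange factors and regulators of HSP70, 2 were lower at an unadjusted p under 0.05, against 12.2% of all genes, and the median was -0.19. Hspbp1, which releases nucleotide from HSP70, had a log2 fold change of -0.39 (standard error 0.13, adjusted p = 0.172), and its PVP livers lay below every water liver. St13, which holds HSP70 in its client-bound form, had a log2 fold change of -0.30 (standard error 0.13, adjusted p = 0.239). Bag3, which couples HSP70 to autophagy and is induced by stress, had log2 signals of 6.09, 6.36, 6.85 and 6.47 in the 4 PVP livers, 6.62, 6.20, 6.46 and 6.67 in the 4 citrate livers and 6.64, 6.45, 6.59 and 6.73 in the 4 water livers. These overlapped, with a log2 fold change of -0.16 (95% interval -0.47 to 0.14, adjusted p = 0.509). Bag1 had a log2 fold change of -0.19 and Bag2 one of -0.019.

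The small heat shock proteins, which hold unfolding proteins without using ATP, were 3. Hspb1 had log2 signals of 5.83, 5.92, 5.89 and 5.74 in the 4 PVP livers, 5.98, 6.07, 6.44 and 6.40 in the 4 citrate livers and 6.52, 5.78, 6.38 and 6.57 in the 4 water livers. The PVP livers lay in a narrow band below all citrate livers, but water replicate 2 lay inside that band, and the log2 fold change of -0.47 (standard error 0.16, adjusted p = 0.171) did not pass. Cryab had low signals of 4.92, 4.68, 4.66 and 4.51 in the 4 PVP livers, 5.05, 4.75, 4.90 and 4.88 in the 4 citrate livers and 4.84, 4.98, 4.76 and 5.07 in the 4 water livers. Its groups overlapped, with a log2 fold change of -0.22 (standard error 0.088, adjusted p = 0.207). Hspb8, the partner of Bag3, had 0.26 (95% interval -0.33 to 0.85), and Hsf2, a second heat shock factor, 0.0082 (95% interval -0.55 to 0.57).

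The 5 mitochondrial members, Trap1, Hspa9, Hspd1, Hspe1 and Dnaja3, all had log2 fold changes below 0 with PVP, against 50.5% of all genes, with a median of -0.30. Of the 5, 3 were lower at an unadjusted p under 0.05, against 12.2% of all genes. Hspd1, the barrel subunit of the chaperonin, had log2 signals of 13.76, 13.70, 13.82 and 13.80 in the 4 PVP livers, 14.22, 14.16, 14.08 and 14.10 in the 4 citrate livers and 13.80, 13.87, 14.00 and 14.01 in the 4 water livers. Each citrate liver lay above each PVP and each water liver, and the PVP and water groups overlapped. The log2 fold change was -0.15 for PVP against water (adjusted p = 0.334) and 0.22 for citrate against water (SE 0.087, unadjusted p = 0.03 in the limma fit, adjusted p = 0.668).

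Hspe1, the lid of the barrel, had log2 signals of 9.46, 9.35, 9.54 and 9.84 in the 4 PVP livers, 10.24, 10.001, 10.15 and 10.19 in the 4 citrate livers and 9.61, 10.005, 10.09 and 9.98 in the 4 water livers. The PVP livers lay below all citrate livers and overlapped the water livers through water replicate 1. PVP against water gave a log2 fold change of -0.38 (standard error 0.14, adjusted p = 0.196), and citrate against water a log2 fold change of 0.22 (adjusted p = 0.903). For both subunits the citrate mean was the highest of the 3 groups and the PVP mean the lowest, as the plot of mitochondrial members shows.

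**Figure D3:**
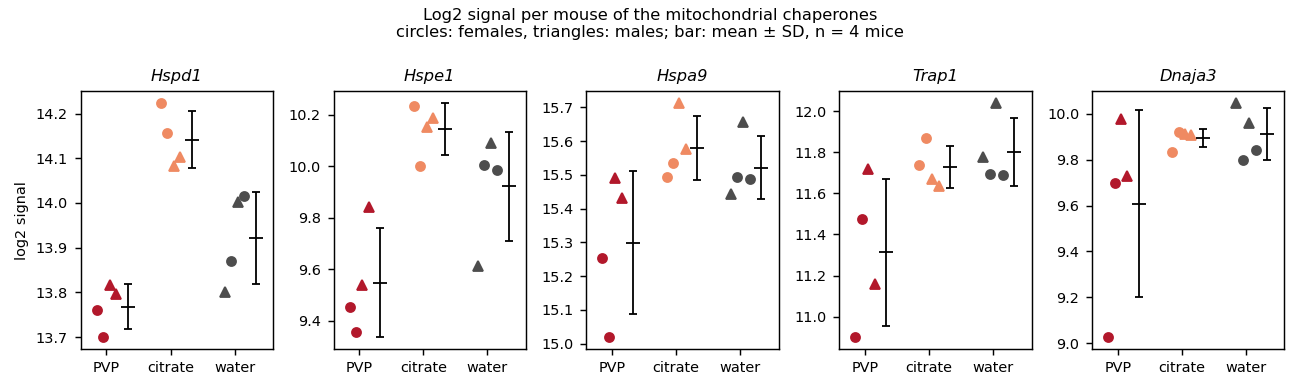
Log2 signal in each mouse for the mitochondrial members, with PVP, citrate and water from left to right; circles are females, triangles are males, and bars are group means with SD (n = 4). For Hspd1 the citrate livers lie above both other groups, and for Hspe1 the PVP livers lie below all citrate livers.

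Citrate-coated silver gave few differences from water among these genes. No member passed an adjusted p of 0.05, at which 0.005% of all genes were lower and 0.0% higher. At an unadjusted p under 0.05, 1 member was lower (Hsph1) and 1 higher (Hspd1), against 3.82% and 2.75% of all genes. No member was lower at that level without citrate replicate 2 or 4. None was higher with the replicate block, after median centring or quantile normalisation, with robust empirical Bayes, or without water replicate 1 or 2 or citrate replicate 1 or 2. The groups did not overlap for Hsph1, which was lower, against 2.37% of all genes, and for Hspd1 and Cdc37l1, which were higher, against 1.93%. Log2 fold changes were below 0 for 23 members and above 0 for 15, against 49.6% and 50.1% of all genes. The members' median was -0.017, against 0.00043 over all genes.

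With citrate, Hsph1 had a log2 fold change of -0.59 (standard error 0.21, adjusted p = 0.584). Hsp90aa1 had a log2 fold change of -0.017 with citrate (95% interval -0.47 to 0.43) and of -1.21 with PVP (95% interval -1.66 to -0.76). In the direct comparison of the coatings this gene did not pass (limma, adjusted p = 0.212). Citrate gave -0.27 for Stip1 (95% interval -0.76 to 0.23) and 0.049 for Ahsa1 (95% interval -0.20 to 0.29). The comparisons of PVP and of citrate with water share the 4 water livers.

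The coatings were also compared directly, at the same dose, particle size and time; this comparison shares the PVP livers with that of PVP against water. No member passed an adjusted p of 0.05, and neither did any gene, 0.0% in each direction. At an unadjusted p under 0.05, 18 of 39 members were lower with PVP and 0 higher, against 8.72% and 5.29% of all genes. The groups did not overlap for 11 members, all lower with PVP, against 4.84% of all genes, and for no member higher, against 2.36%. Log2 fold changes were below 0 for 32 members and above 0 for 6, against 50.2% and 49.6% of all genes. The median over members was -0.27, against -0.00055 over all genes. Without PVP replicates 1 and 4, 11 members were lower at an unadjusted p under 0.05 and 2 were higher. The share of all genes was not counted in that fit.

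The smallest p belonged to Ahsa1, Hsp90aa1 and Ppid, with log2 fold changes for PVP against citrate of -0.66 (SE 0.11), -1.19 (SE 0.20) and -0.68 (SE 0.14). The adjusted p of each was 0.212, as was that of Stip1, whose log2 fold change was -1.12 (SE 0.23). For all 4 genes each PVP liver lay below each citrate liver. Tomm34, Hspa4l, Cacybp, Hspd1, Hspe1, Hspa9 and Hspb1 were the other members whose groups were apart. For Hsph1 the log2 fold change was -0.82 (SE 0.21, adjusted p = 0.247), with overlap.

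Both chaperonin subunits were lower in PVP than in citrate livers at an unadjusted p under 0.05, Hspd1 with -0.37 (SE 0.087, adjusted p = 0.239) and Hspe1 with -0.60 (SE 0.14, adjusted p = 0.239). Of the mitochondrial members, 4 of 5 were lower at that level and 3 had groups apart, against 8.72% and 4.84% of all genes, with a median of -0.37. Among HSP90 cochaperones the numbers were 7 and 5 of 12, with a median of -0.48. No J-domain cochaperone reached the level, and their median was -0.13.

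The size of the deviation differed between mice. Relative to each gene's mean over the 4 water livers, the median deviation over the 38 members with information was -0.48, -0.23, -0.045 and -0.18 in PVP replicates 1 to 4. In citrate livers it lay between -0.045 and 0.013, and in water livers between -0.088 and 0.11. Over the 12 HSP90 cochaperones the PVP values were -0.81, -0.49, -0.30 and -0.38, all below the lowest value in the other groups, -0.19. The 2 lowest PVP values in both sets belonged to females, replicates 1 and 2, and replicate 1 also had the lowest exon over intron area. With that area as a term in the fit the median log2 fold change for PVP against water over the 38 members was -0.22, against -0.23 without the term. That median was -0.18 without PVP replicates 1 and 4, and also -0.18 without PVP replicate 1 alone. The part of array quality in these values was not tested.

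**Figure D4:**
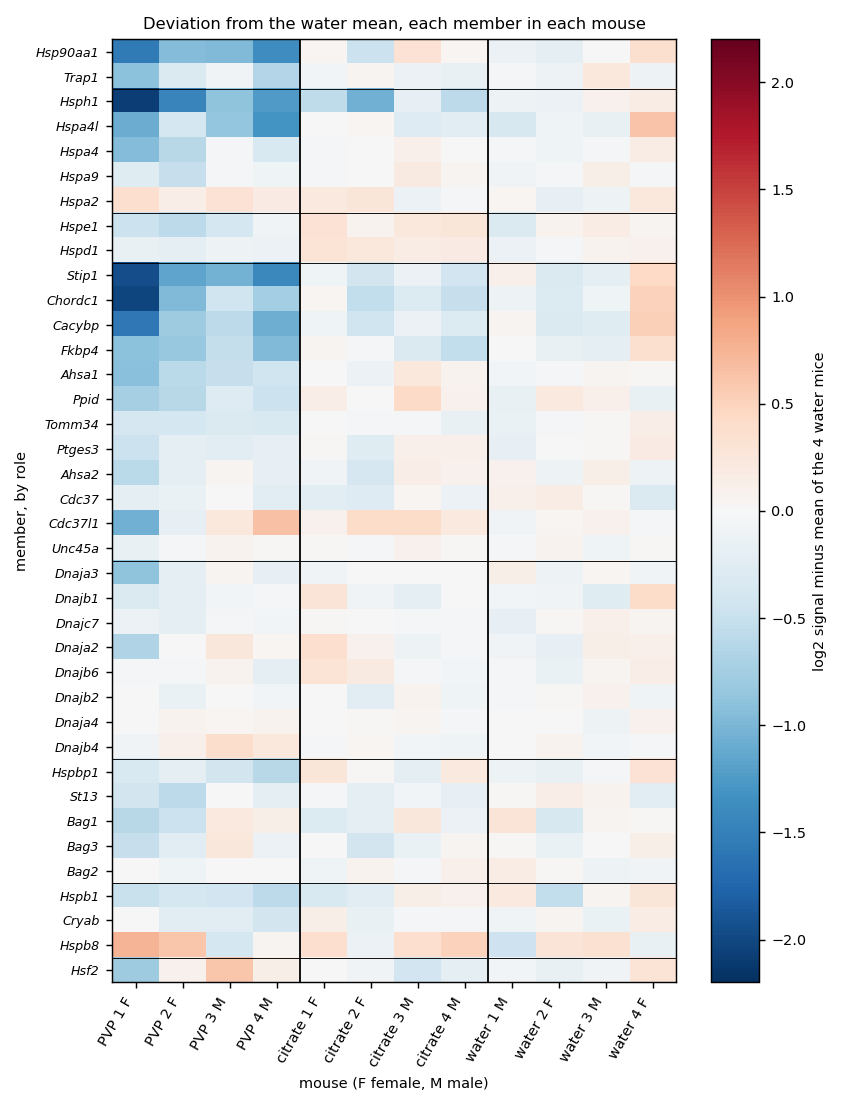
Deviation of log2 signal from the mean of the 4 water livers for the 38 members below the ceiling, by mouse (columns: PVP, citrate, water, with sex) and member (rows, by role); blue is lower and red higher. The PVP columns are blue for Hsp90aa1, Hsph1 and most HSP90 cochaperones, and PVP replicate 1 is the darkest for Hsph1, Stip1 and Chordc1.

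The sexes were compared within each treatment, from 2 mice per mean. With PVP against water, 15 members in females and 8 in males were lower at an unadjusted p under 0.05, against 8.43% and 4.37% of all genes. In females 0 members and in males 1 member were higher, against 4.58% and 3.64%. The median log2 fold change over members was -0.38 in females and -0.15 in males. The female PVP mean includes replicate 1, with the lowest exon over intron area, 0.778. The male PVP mean includes replicate 4, with the next lowest, 0.794. The part of array quality in these values was not tested. The difference itself, the PVP effect in females minus that in males, passed for no member after adjustment, and for 2 of 39 at an unadjusted p under 0.05, against 3.62% of all genes. These were Cdc37l1, with a difference of -1.05 (SE 0.40), and Hspa4, with -0.66 (SE 0.26), as log2 values.

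For Hsp90aa1 the log2 fold change with PVP was -1.32 in females and -1.10 in males. For Stip1 it was -1.61 in females and -1.17 in males, and for Hsph1 -1.77 in females and -1.05 in males. Each was below 0 in both sexes. With citrate no member had a difference between the sexes at an unadjusted p under 0.05, against 2.45% of all genes.

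Further genes of the same pathways, which are not among the 42, gave these counts for PVP against water; none passed after adjustment. Of 25 other HSP70, J-domain and BAG genes tested, 7 were lower and 1 higher at an unadjusted p under 0.05, against 12.2% and 8.05% of all genes, with a median of -0.10. The lower ones included Dnajb12 (-0.75), a J-domain protein of the endoplasmic reticulum membrane, and Dnajc28 (-0.47) and Dnajc27 (-0.17). The higher one was Dnajc12, a cochaperone for aromatic amino acid hydroxylases, at 1.62 ± 0.55 (SE; limma adjusted p = 0.173) with overlapping groups. The strongly stress-inducible Hspa1a had -0.10.

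Of 20 other HSP90 cochaperones, 4 were lower at that level, against 12.2% of all genes, and 17 had a log2 fold change below 0, against 50.5%, with a median of -0.18. They were Sugt1 (-0.44), an adaptor of HSP90, Pih1d1 (-0.29) and Ruvbl2 (-0.12), which belong to the R2TP complex, and Sgta (-0.51), which sorts tail-anchored proteins. Of 5 prefoldin subunits, which pass unfolded actin and tubulin to the cytosolic chaperonin, 1 was lower at that level, Pfdn5 (-0.30).

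In the mitochondrial import motor, its cochaperones and proteases, all 13 genes tested had log2 fold changes below 0 with PVP against water, against 50.5% of all genes. Of these, 5 were lower at an unadjusted p under 0.05, against 12.2% of all genes, and the median was -0.23. The smallest p belonged to Timm44 (-0.36), which tethers mitochondrial HSP70 to the import channel, Clpx (-0.39) and Clpp (-0.31), the unfoldase and protease of the matrix, and Grpel2 (-0.55), an exchange factor of Hspa9. With citrate against water these 4 had 0.035, 0.023, -0.045 and -0.29.

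Some markers of other liver cells also differed from water livers in mean signal. In PVP against water, 12.2% of all genes were lower and 8.05% higher at an unadjusted p under 0.05. Log2 fold changes were below 0 for 50.5% of all genes and above 0 for 49.2%. All 7 stellate cell markers had log2 fold changes below 0 with PVP against water, 3 of them at an unadjusted p under 0.05 (Reln -0.83, Pdgfrb -0.38, Lrat -1.18), and the mean marker signal was 6.71 to 7.23 in PVP livers, 7.06 to 7.45 in citrate livers and 7.27 to 7.70 in water livers. All 7 Kupffer cell markers were above 0, 1 of them at that level (Cd5l 1.36), with mean signals of 8.09 to 10.17 in PVP, 8.11 to 9.37 in citrate and 7.98 to 8.89 in water livers. Of the neutrophil markers 5 of 7 were tested, all above 0, 2 of them at that level (S100a8 2.10, S100a9 1.96); Mpo and Ngp lay below the filter. Their mean signal was 6.32 to 8.38 in PVP, 6.22 to 6.99 in citrate and 4.61 to 6.89 in water livers. Of 6 sinusoidal endothelial markers 1 was lower at that level (Pecam1 -0.35), and of 4 cholangiocyte, 5 lymphocyte and 1 erythroid markers tested none was. With citrate against water all 7 stellate markers were also below 0, with a median of -0.24 against -0.38 with PVP. Over all genes 49.6% were below 0 and 50.1% above 0 with citrate. All 7 Kupffer markers were above 0 with citrate (median 0.42, against 0.46 with PVP). The livers differed, however. Relative to the water mean, the median Kupffer deviation was 0.21, 1.73, -0.21 and 0.11 in PVP replicates 1 to 4. In citrate replicates 1 to 4 it was 1.23, 0.70, -0.14 and -0.089, where replicates 1 and 2 are the females of each group. In males 3 of the 7 Kupffer markers were below 0 with each coating. All 5 neutrophil markers tested were also above 0 with citrate (median 0.83, against 0.59 with PVP). The part of these cells in the chaperone values was not tested, and the hepatocyte markers, many of them at the ceiling, had mean signals of 18.83 to 18.92 in PVP, 18.87 to 18.95 in citrate and 18.84 to 18.93 in water livers.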

How the data were processed

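Total liver RNA from 12 mice was hybridised to Affymetrix whole-transcript arrays. The deposited table holds log2 signals for 72688 probe sets; RMA and Transcriptome Analysis Console 4.0.1.36 are named in the submitters' processing notes, without role or order. The genome build behind the signals is not given in the sources used here. A ceiling at 19.93 was reached by 208 probe sets on at least 1 array, where differences are hidden. Probe sets naming exactly 1 symbol (30604) were kept, 2146 named several and 39938 none; 1135 symbols were updated through RefSeq. Of 30063 genes, the 19985 with a mean over the 40th percentile of probe set means were tested. The test used limma 3.58.1 (R 4.3.3), in 1 fit to the 12 arrays with terms for group and sex and a trend on the mean. A fit of 6 means of group by sex gave the sex differences. Tests were two-sided, with Benjamini-Hochberg adjustment over all genes tested. The procedure was tested on simulated data, and 25 alternatives per comparison changed the filter, the model terms, the normalisation, the choice of probe set, the variance model or the arrays left in.

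Values in every mouse are given for the 10 members of smallest p in PVP against water, the 3 in each other comparison and a fixed set (Hsp90aa1, Hsp90ab1, Hspa8, Hspa9, Hspd1, Hspe1, Dnajb1, Bag3, Hspb1, Cryab, Hsf1), and up to 4 genes are named per list of the wider pathway; Hspa1a, Hspa2, Cdc37l1 and the markers were named after their values were seen. The members and lists were chosen with earlier results of these data known.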

Additional observations from a re-analysis of the deposited data

How the results depend on the processing

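No member passed an adjusted p of 0.05 in citrate against water or in PVP against citrate under any of 25 alternatives. The share of all genes at each level was not counted for the alternatives. In PVP against water the number of members that passed was 0; it was 2 with array weights (Hsph1, Stip1), 4 without a trend on the mean (Hsph1, Ahsa1, Stip1, Hsp90aa1) and 1 after quantile normalisation (Hsph1). Leaving out each array in turn gave 0 to 3, and the 3 came without PVP replicate 3 (Hsph1, Stip1 and Fkbp4, adjusted p = 0.0419, 0.0488 and 0.0489). The number lower at an unadjusted p under 0.05 was 18 in PVP against water and 14 to 19 with each array left out. In PVP against citrate it was 18, 15 to 19 with each array left out, and 11 without PVP replicates 1 and 4, the arrays with the least separation of exon from intron controls. In citrate against water it was 1, and 0 to 1 with each array left out, with 0 without citrate replicate 2 or 4. At that level no member was higher in PVP against citrate; 2 were when the fit included the exon over intron area, without PVP replicates 1 and 4, or without PVP replicate 1, and 1 was in 5 other alternatives.

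Of the 17 members below the ceiling whose values are given in every mouse, none passed with a turned sign, but small fold changes did change direction. Bag3 and Dnajb1 in PVP against water were at 0.0081 and 0.0020 with the area as a term. Bag3 in PVP against citrate ran from -0.16 to 0.12. In citrate against water 7 members (Ahsa1, Cryab, Dnajb1, Hsp90aa1, Hspa4l, Hspa9 and Hspb1), with log2 fold changes between -0.12 and 0.059, turned under at least 1 alternative, and the members' median, -0.017, was 0.029 without water replicate 4. In PVP against water Hspb1 was at -0.30 with the area as a term, and Hspd1 and Hspe1 were at -0.089 and -0.22 after quantile normalisation. The cause of these shifts was not tested.

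Replicate numbers are shared by the groups and were not taken as pairs in the main fit. The deviations of same-numbered mice correlated between -0.44 and 0.23, over 0.1 in 2 of 12 pairs. Those of other pairs across groups correlated between -0.37 and 0.52, over 0.1 in 13 of 36. Whether same-numbered mice shared a batch was not tested. With the replicate block, 16 members were lower at an unadjusted p under 0.05 in PVP against water, 16 in PVP against citrate and 1 in citrate against water, and none passed after adjustment. The share of all genes was not counted in the fit with the block. Signals at the ceiling and 4 mice per group limit what can be seen.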

Other observations

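A pair of gene groups outside the chaperones was read from the same fit. Of the cold-inducible RNA-binding proteins, Rbm3 had signals of 8.93, 9.78, 8.85 and 8.91 in PVP livers, 9.11, 8.48, 8.49 and 8.47 in citrate livers and 8.49, 8.74, 8.76 and 8.13 in water livers. Each PVP liver lay above each water liver, as for 2.98% of all genes, with a log2 fold change of 0.59 (SE 0.24 and, in limma, adjusted p = 0.209). The PVP and citrate groups overlapped through citrate replicate 1. Cirbp had a log2 fold change of 0.16 with overlapping groups.

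Of 14 circadian clock genes tested, 3 were lower and none was higher at an unadjusted p under 0.05 in PVP against water, against 12.2% and 8.05% of all genes. Their median log2 fold change was -0.028, and 9 were below 0, against 50.5% of all genes. In citrate against water 3 were also lower and none higher, against 3.82% and 2.75% of all genes. The median there was -0.14, and 12 of 14 genes were below 0, against 49.6% of all genes. Those lower with PVP were Clock, an activator of the clock (-0.61), Nr1d1, a repressor (-0.74), and Dbp, a clock output factor (-0.43). Against water, Nr1d1 had -1.23 with citrate (limma, adjusted p = 0.187), and each citrate liver lay below each water liver, as for 2.37% of all genes. The time of day at which livers were taken is not given in the sources used here.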
